A study of Mus musculus with 12 samples.

Results

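The genes that write, read and erase DNA methylation and histone marks were examined in the livers of male mice descended from obese females. The members were 50 named genes, and 30142 genes had a probe set of their own on the array. The members were chosen by symbol, with earlier results of these data known. For each gene the brightest probe set carrying that symbol alone was used. Such a probe set was found for 48 of the 50, and 45 were bright enough to be tested among 18725 genes. The probe sets of Tdg, a thymine DNA glycosylase, and Hdac5, a class IIa deacetylase, carried other symbols as well, so no value is given for either. Tet1, Mbd4 and Suv39h2 were measured and lay under the brightness filter.

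The data are 12 Affymetrix whole-transcript arrays of liver RNA, 4 per group. The first 2 groups were F2 and F3 males with an obese Avy/a female ancestor. Avy, viable yellow, is a dominant agouti allele whose carriers become obese. The series text describes these males as grandsons and great-grandsons of such females, while the sample labels call them F2 and F3 sons of an obese mother. The third group was control males from lean control parents, and the labels do not state to which generation each control male belonged. All males were C57BL/6, 12 weeks old, and the labels list no allele or treatment of the males themselves. The Avy/a genotype is given for the ancestral females only. The labels do not state that the 4 replicates of a group were separate animals, so p-values rest on a spread between samples that may be partly technical.

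DNA methyltransferases add methyl groups to cytosines in CpG dinucleotides, Tet enzymes oxidise them as a step towards removal, and methyl-CpG domain proteins bind them. Histone methyltransferases and acetyltransferases place marks on histone tails, and demethylases, deacetylases and the NAD-dependent sirtuins remove them. Several of these enzymes draw on acetyl-CoA, S-adenosylmethionine or NAD, whose supply depends on metabolism, and chromatin marks are among the carriers considered in studies of inherited effects of parental diet.

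Values are the deposited log2 expression values, on which a difference of 1 is a doubling of the signal. Medians per array lay between 4.49 and 4.60. Of the 45 tested members, 19 were above the 95th percentile of the 5222 negative control probe sets (7.05) and 26 were below it. The labelled tissue was borne out by its defining markers: the mean of 7 hepatocyte genes lay between 12.47 and 12.66 on all 12 arrays. The arrays fell into 2 sets by their small nucleolar RNA level, at the widest gap in that level, and both sets held arrays of all 3 groups. The higher set held F2 replicates 1 and 4, F3 replicates 1, 2 and 3, and control replicates 2 and 4.

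No member differed between the groups after adjustment. In F2 against control livers, limma called 0 of 45 members at an adjusted p under 0.05, against 0% of all 18725 genes. At an unadjusted p under 0.05 it found 0 of 45 members, against 0.919% of all genes. In F3 against control livers 0 of 45 members were called (0% of all genes), and 1 of 45, Trim28, had an unadjusted p under 0.05, against 2.93% of all genes. In F3 against F2 livers 0 of 45 were called (0% of all genes) and 0 had an unadjusted p under 0.05, against 2.37%. The smallest adjusted p among the members was 0.9999 for F2, 0.9998 for F3 and 0.9999 for F3 minus F2 (limma, Benjamini-Hochberg over 18725 genes). A moderated F test for any difference among the 3 groups called 0 of 45 (0% of all genes), with 0 at an unadjusted p under 0.05, against 1.7% of all genes. With any 1 array left out, the members at an unadjusted p under 0.05 numbered 0 in F2, 0 to 2 in F3 and 0 to 1 in F3 minus F2. Those that appeared were Prmt5 without F3 replicate 4 (-0.22) and Suz12 without control replicate 2 (0.22) in F3 minus control, and Mbd1 without F2 replicate 2 (-0.72) and Kdm6b without F3 replicate 4 (-0.18) in F3 minus F2; none passed adjustment. The F2 and F3 comparisons share the 4 control arrays, so their values are given side by side and are not independent of each other.

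The signs were mixed and the sizes small. In F2 minus control, 21 members were higher and 24 lower, with 46.7% higher against 43.3% of all genes and a median of -0.002, against a median of -0.010 over all genes tested. For F3 minus control the split was 18 higher and 27 lower (40.0% higher, against 45.3%), with a median of -0.010, the value found over all genes as well. F3 minus F2 gave 17 higher and 28 lower (37.8% higher, against 51.4%), with a median of -0.009, against 0.003 over all genes. The median absolute difference of the members was 0.037 for F2, 0.036 for F3 and 0.034 for F3 minus F2, against 0.044, 0.059 and 0.051 over all genes. For 44 of 45 members in each of these comparisons the 95% interval of the difference lay wholly within 1.5-fold, against 95.2%, 94.1% and 94.0% of all genes, and the exception was Mbd1 each time. Within 1.2-fold lay the intervals of 35 members in F2 and 33 in F3, which was 77.8% and 73.3% of the members against 58.7% and 52.3% of all genes. The shares were 82.6% and 83.7% of 86 tested chromatin genes outside the list, described below, so narrow intervals were not particular to the members. In 0 of 45 members did the 4 F2 arrays stand clear of the 4 control arrays, against 0.705% of all genes. The count was also 0 for F3 against control, where 1.63% of all genes separated, and 0 for F3 against F2, where 2.46% did.

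**Figure D1:**
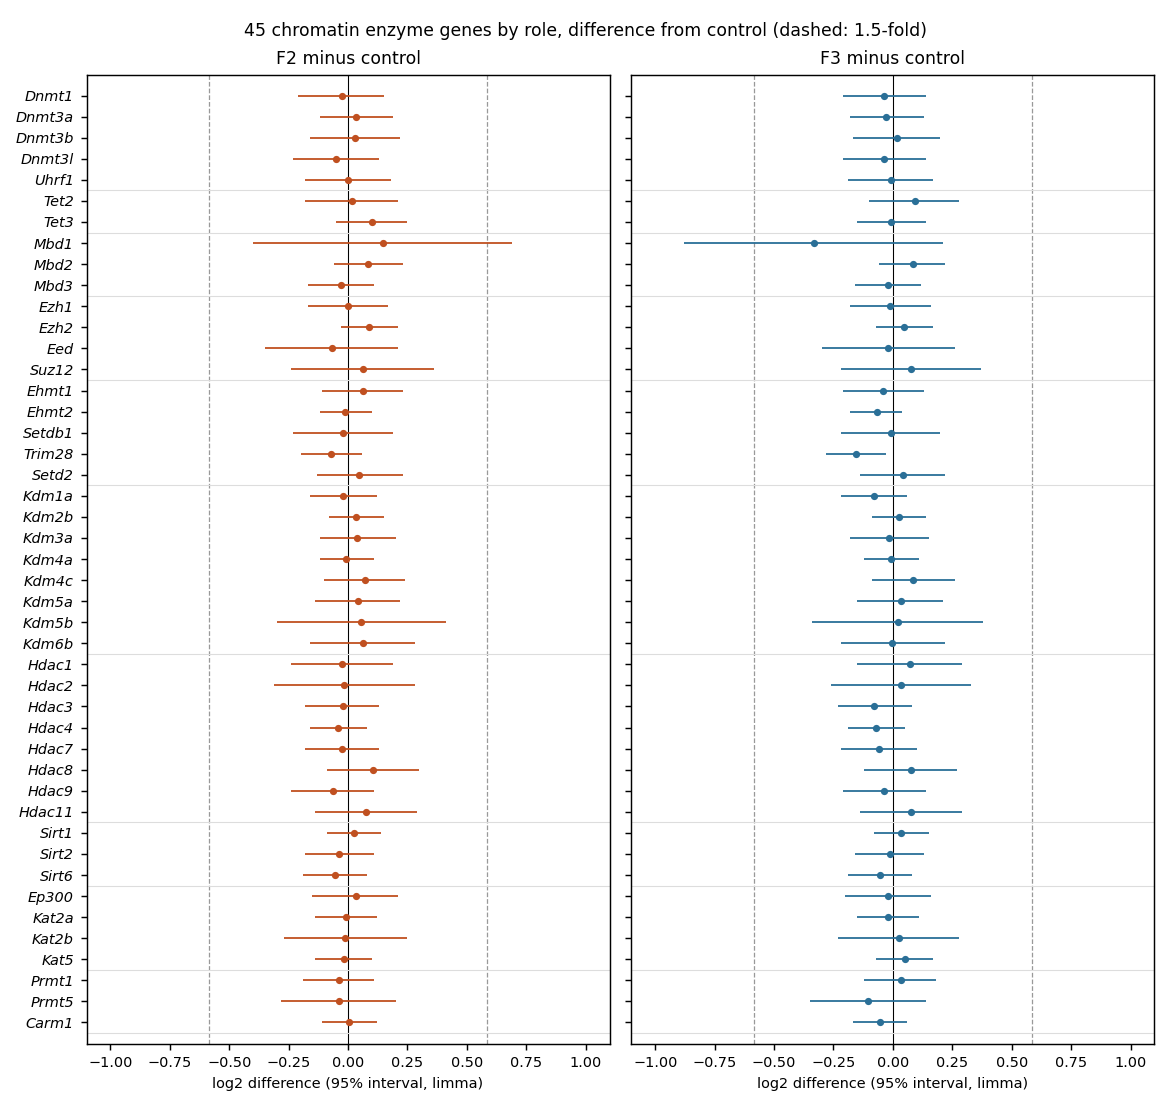
Log2 difference from control for each of the 45 tested genes, grouped by role, for F2 (left) and F3 (right), 4 arrays per group. Points are limma estimates, bars their 95% intervals, and dashed lines mark 1.5-fold; intervals of 44 of 45 genes stay within those lines in each panel, and Mbd1 reaches past them.

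No difference between groups was detected for the DNA methyltransferases and their cofactors. All 5 lay below the 95th percentile of negative controls, with 7.8% of those probe sets at least as bright as Dnmt1 and 7.6% as bright as Dnmt3a, and a difference in such dim probe sets may not be detectable. Dnmt1, the maintenance methyltransferase that copies methylation after replication, read 6.55, 6.82, 6.50 and 6.65 in F2 livers, 6.61, 6.54, 6.76 and 6.58 in F3 livers and 6.57, 6.79, 6.59 and 6.67 in control livers, in the order of replicates 1 to 4. Dnmt3a, a de novo methyltransferase, read 6.67, 6.82, 6.55 and 6.73 in F2 livers, 6.61, 6.66, 6.74 and 6.52 in F3 livers and 6.58, 6.68, 6.64 and 6.75 in control livers. Both genes overlapped fully between groups, with F2 minus control of -0.03 for Dnmt1 (SE 0.082) and 0.03 for Dnmt3a (SE 0.072). Dnmt3b, the other de novo enzyme, read 4.85, 5.20, 4.89 and 4.94 in F2 livers, 4.89, 4.92, 5.09 and 4.93 in F3 livers and 4.88, 4.82, 5.04 and 5.02 in control livers. Dnmt3l, a catalytically inactive partner of the de novo enzymes best known in germ cells, read 4.61, 4.82, 4.67 and 4.64 in F2 livers, 4.65, 4.70, 4.74 and 4.71 in F3 livers and 4.70, 4.54, 4.95 and 4.75 in control livers. Dnmt3b and Dnmt3l were the dimmest of the 5, since 33.5% of negative control probe sets were at least as bright as Dnmt3b and 39.1% as bright as Dnmt3l. Uhrf1, which brings Dnmt1 to half-methylated DNA behind the replication fork, read 5.63, 5.91, 5.63 and 5.66 in F2 livers, 5.59, 5.72, 5.81 and 5.67 in F3 livers and 5.66, 5.57, 5.87 and 5.73 in control livers. Its group means were 5.71 ± 0.14, 5.70 ± 0.09 and 5.71 ± 0.13 in F2, F3 and control livers (SD, n = 4 each), and 19.0% of negative control probe sets were at least as bright. Unadjusted limma p-values of the 5 genes ran from 0.55 upwards in F2 and from 0.644 upwards in F3.

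One F2 array stood high for this role. F2 replicate 2 gave the highest of the 12 values for Dnmt1, Dnmt3a, Dnmt3b and Uhrf1, that is for 4 of the 5 genes. Members of other roles peaked there too, since 10 of the 45 tested members (22.2%) did, against 10.2% of all genes tested. Without F2 replicate 2, F2 minus control was -0.09 for Dnmt1, -0.01 for Dnmt3a, -0.05 for Dnmt3b and -0.07 for Uhrf1. The hepatocyte marker mean of F2 replicate 2 was the lowest of the 12 at 12.47. Of its 7 genes only 1, Cyp3a11 at 10.77, was lowest on that array, while Ahsg at 13.02 was near its highest value of 13.05. The Kupffer cell list (7 of 7 genes measured, 5 above the 95th percentile of negative controls) was at its highest there, 8.28 against 8.02 on the next array. That list ranged from 7.50 to 8.28 in F2, 7.34 to 8.02 in F3 and 7.62 to 7.85 in control livers. The lymphocyte list, with 0 of 7 genes above that percentile, reached its highest mean of 5.11 on the same array, within ranges of 4.67 to 5.11 in F2, 4.68 to 4.94 in F3 and 4.75 to 4.99 in control livers. The dividing cell list (11 of 12 measured, 0 above that percentile) ranged from 5.03 to 5.28 in F2, 4.91 to 5.30 in F3 and 5.05 to 5.27 in control livers. F2 replicate 2 was the highest array for 3 of its 11 genes (Top2a, Mcm2 and Mcm5), against 7 of 7 Kupffer cell genes and 5 of 7 lymphocyte genes. It was also highest for 4 of 7 stellate cell genes (Des, Col1a1, Col3a1 and Pdgfrb) and lowest for 2 (Lrat and Reln). The cholangiocyte mean was highest there at 5.58, against 5.57 on the next array, with 0 of 4 genes highest there. The sinusoidal endothelial mean was 7.94 there, against 7.95 on the highest array, control replicate 2. F3 replicate 3 had the highest dividing cell mean, 5.30, with F2 replicate 2 next at 5.28. The replication genes differed among themselves on F2 replicate 2: Mcm2 at 6.23 and Mcm5 at 5.64 were highest there, while Mcm3 at 5.92 and Mcm6 at 5.46 lay below F3 replicate 3 (5.99 and 5.70), and Pcna read 6.07 there, against 6.22 on F3 replicate 3. The part of these cells in the DNA methyltransferase values was not tested, and in bulk liver fewer cells of a type and less RNA per cell cannot be told apart.

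**Figure D2:**
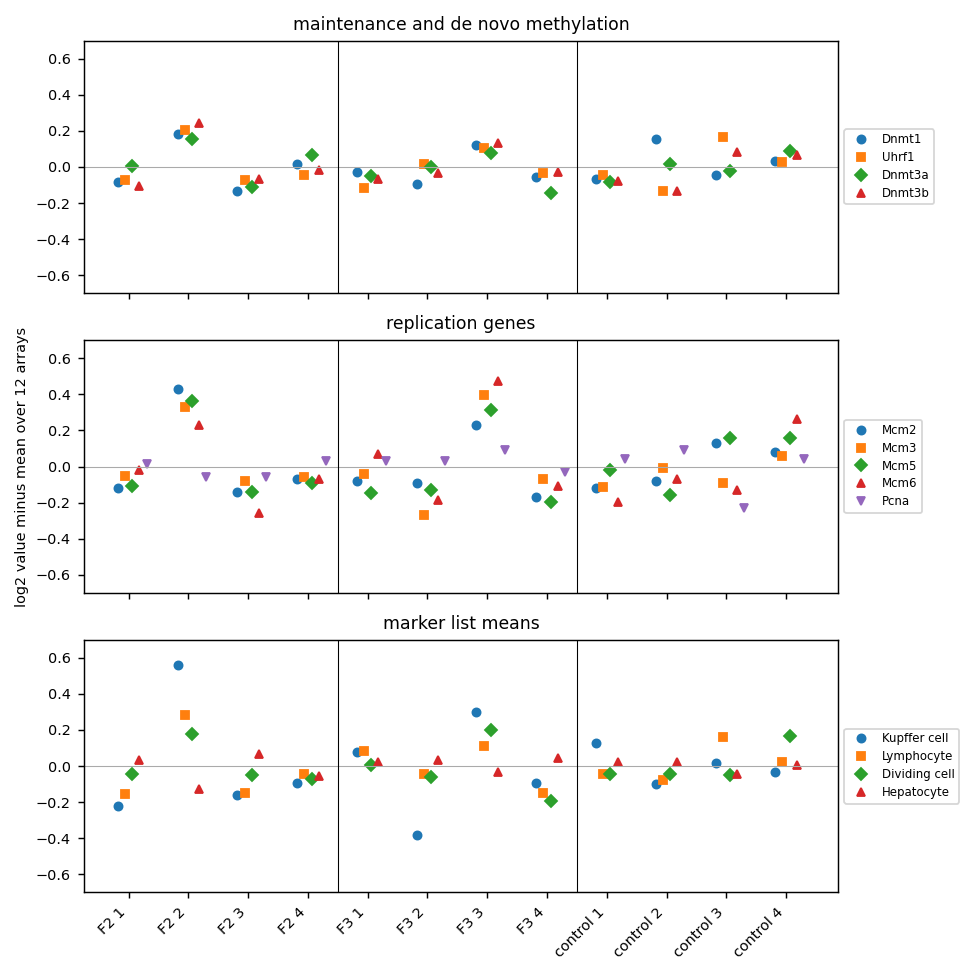
Log2 value minus the mean over the 12 arrays, by array, for maintenance and de novo methylation genes (top), replication genes (middle) and the means of 4 marker lists (bottom). F2 replicate 2 is the highest array for Dnmt1, Uhrf1, Dnmt3a and Dnmt3b. It is also highest for 2 of the 5 replication genes drawn (Mcm2 and Mcm5, but not Mcm3, Mcm6 or Pcna). Its mean is highest for the Kupffer cell and lymphocyte lists and lowest for the hepatocyte list. Of the 7 hepatocyte genes 1, Cyp3a11, was lowest there.

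The promoter of Uhrf1 is shown because Uhrf1 and Dnmt1 are known targets of E2F factors, which act at the start of S phase. The choice was made after the values were seen. The sequence is the 250 bases before the second of 2 RefSeq starts of Uhrf1, the one of the 2 with the match named next, at chr17:56304063-56304312 on the plus strand of GRCm38.p6. Capitals mark a match to TTTCGCGC, 1 of 3 letter forms of the E2F site searched, and 2 matches to CCAAT.
Uhrf1: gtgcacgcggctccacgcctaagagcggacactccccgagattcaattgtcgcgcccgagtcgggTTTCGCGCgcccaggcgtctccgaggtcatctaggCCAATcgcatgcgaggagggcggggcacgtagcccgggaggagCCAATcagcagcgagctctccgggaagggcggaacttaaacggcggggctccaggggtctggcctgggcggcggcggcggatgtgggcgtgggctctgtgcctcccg
The E2F match begins 185 bases before the start. Across 300-base windows (250 bases before to 50 after a start), 4 of 43 members with a RefSeq promoter held TTTCGCGC, TTTGGCGC or TTTCCCGC on either strand: Dnmt1, Uhrf1, Ezh2 and Suz12. That is 9.30% of members, against 3.43% of 10951 tested protein-coding genes. A gene counted where any of its windows held a match. The 43 members had 64 windows and the 10951 genes 13843, so members had more windows per gene to search. A match is a string of letters and not a shown binding site. Dnmt3a and Dnmt3b, which also peaked on F2 replicate 2, held no E2F match. Of the 4 genes with a match, Dnmt1, Uhrf1 and Ezh2 were highest on that array. Suz12 read 6.35 there, against a mean of 6.42 over the 12 arrays. Any part of E2F factors in these values was not tested.

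**Figure D3:**
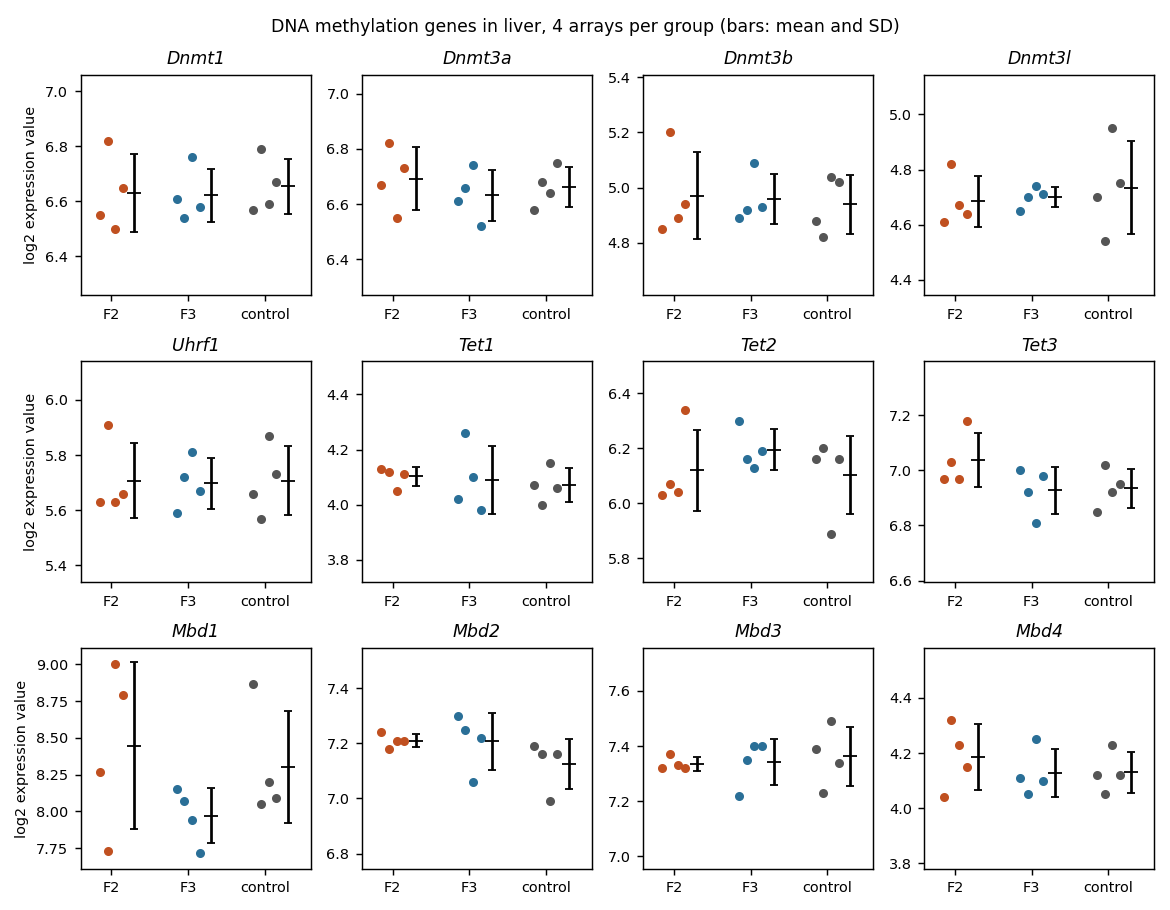
Log2 values of 12 DNA methylation genes in F2, F3 and control livers, 1 point per array, with the mean and SD of 4 arrays beside them. Every panel shows overlapping groups, and Mbd1 has the widest scatter, from 7.72 to 9.0.

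Among the demethylation genes, the Tet dioxygenases oxidise methylcytosine. Tet2 read 6.03, 6.07, 6.04 and 6.34 in F2 livers, 6.30, 6.16, 6.13 and 6.19 in F3 livers and 6.16, 6.20, 5.89 and 6.16 in control livers. Tet3 read 6.97, 7.03, 6.97 and 7.18 in F2 livers, 7.00, 6.92, 6.81 and 6.98 in F3 livers and 6.85, 7.02, 6.92 and 6.95 in control livers. Tet3 was higher on average in F2 livers, by 0.10 over control (95% interval -0.05 to 0.25), and F3 minus F2 was -0.11 (-0.26 to 0.04), with all 3 groups overlapping. Leaving out F2 replicate 4, which held the highest value of both genes, brought the F2 difference of Tet3 to 0.05. Tet1 was not tested, read between 3.98 and 4.26 on the 12 arrays, and was matched or exceeded by 53.3% of negative control probe sets. Its values were 4.13, 4.12, 4.05 and 4.11 in F2 livers, 4.02, 4.26, 4.10 and 3.98 in F3 livers and 4.07, 4.00, 4.15 and 4.06 in control livers.

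Of the methyl-CpG domain proteins, Mbd1 was the most variable of all 45 members. Mbd1, a transcriptional repressor, read 8.27, 7.73, 9.0 and 8.79 in F2 livers, 8.15, 8.07, 7.94 and 7.72 in F3 livers and 8.87, 8.05, 8.20 and 8.09 in control livers. Its within-group SD was 0.409, against a median of 0.108 over the members and 0.128 over all genes, and no group stood apart from the others. F3 minus F2 was -0.48 (95% interval -1.02 to 0.07) and F3 minus control -0.33 (-0.88 to 0.21). The size of these differences hung on single arrays: F3 minus F2 ran from -0.72 without F2 replicate 2 to -0.30 without F2 replicate 3, and F3 minus control was -0.14 without control replicate 1. Both stayed negative with any 1 array left out and under every other setting, several of which cannot change a difference. Over those other settings F3 minus control came as close to no difference as -0.02. Mbd2, which bridges methylated DNA to the NuRD deacetylase complex, read 7.24, 7.18, 7.21 and 7.21 in F2 livers, 7.30, 7.25, 7.06 and 7.22 in F3 livers and 7.19, 7.16, 6.99 and 7.16 in control livers. It was 0.08 above control in both F2 and F3 (SE 0.065 each), and 0.04 above control in each without control replicate 3, the lowest array of the 12. Mbd3, a NuRD subunit that in mammals binds methylated DNA weakly, read 7.32, 7.37, 7.33 and 7.32 in F2 livers, 7.22, 7.35, 7.40 and 7.40 in F3 livers and 7.39, 7.23, 7.49 and 7.34 in control livers. The glycosylase Mbd4 was not tested, since 51.9% of negative control probe sets were at least as bright. It read 4.04, 4.32, 4.23 and 4.15 in F2 livers, 4.11, 4.05, 4.25 and 4.10 in F3 livers and 4.12, 4.05, 4.23 and 4.12 in control livers.

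Polycomb repressive complex 2 methylates lysine 27 of histone H3 through Ezh1 or Ezh2, held in an active state by Eed and Suz12. Ezh2, the form linked to dividing cells, read 5.49, 5.59, 5.50 and 5.57 in F2 livers, 5.50, 5.46, 5.54 and 5.49 in F3 livers and 5.39, 5.54, 5.39 and 5.48 in control livers. It was 0.09 above control in F2 (95% interval -0.03 to 0.21, with the smallest p of the 45 members in that comparison) and 0.05 above in F3 (-0.07 to 0.17). The groups overlapped, and 22.6% of negative control probe sets were at least as bright. Ezh1, the form found in resting cells, had group means of 7.53, 7.52 and 7.53 in F2, F3 and control livers. Eed and Suz12 differed mostly among the control arrays: Suz12 ran from 6.01 in control replicate 3 to 6.82 in control replicate 2, while its F2 values lay between 6.31 and 6.61 and its F3 values between 6.41 and 6.55. F3 minus control of Suz12 was 0.08, and 0.22 without control replicate 2. Eed ran from 6.40 to 7.07 on the same 2 control arrays.

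Trim28 gave the smallest p of the list in F3 against control. Trim28 (KAP1) is the corepressor that KRAB zinc finger proteins recruit to DNA, where it gathers Setdb1 and guards imprints and silenced repeats. It read 7.29, 7.30, 7.34 and 7.35 in F2 livers, 7.14, 7.25, 7.24 and 7.32 in F3 livers and 7.28, 7.47, 7.41 and 7.40 in control livers. Its mean was 7.24 ± 0.07 in F3 livers, against 7.39 ± 0.08 in control livers (SD, n = 4 each). That is a difference of -0.15 (95% interval -0.28 to -0.03, SE 0.058, adjusted p = 0.9998 by limma). The groups overlapped by 1 array each, since F3 replicate 4 at 7.32 exceeded control replicate 1 at 7.28. F2 livers, at 7.32 ± 0.03, differed from control by -0.07 (95% interval -0.20 to 0.06). The F3 difference lay between -0.19 and -0.12 with any 1 array left out, and without F3 replicate 1 or without control replicate 2 its unadjusted p was above 0.05. It was -0.22 in the higher set of arrays alone and -0.03 in the lower set alone, where F3 had 1 array.

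The Trim28 promoter is printed because that gene had the smallest F3 p-value of the list. It covers the 250 bases before the RefSeq start, chr7:13023902-13024151 on the plus strand of GRCm38.p6, with CpG dinucleotides in capitals (17 of them).
Trim28: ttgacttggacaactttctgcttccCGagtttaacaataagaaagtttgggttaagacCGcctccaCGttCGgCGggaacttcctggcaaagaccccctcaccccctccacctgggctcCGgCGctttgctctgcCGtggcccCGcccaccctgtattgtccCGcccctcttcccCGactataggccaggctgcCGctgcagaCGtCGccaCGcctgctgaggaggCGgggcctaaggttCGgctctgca
The 300-base window of Trim28 held a GC box, GGGCGG on either strand, as did 74.4% of the members and 63.1% of tested protein-coding genes.

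The other H3K9 and H3K36 enzymes moved little. Ehmt2 (G9a), which dimethylates H3K9, read 7.53, 7.57, 7.49 and 7.53 in F2 livers, 7.44, 7.49, 7.49 and 7.48 in F3 livers and 7.46, 7.53, 7.60 and 7.57 in control livers. It had the smallest within-group SD of the members, 0.041, and an F3 minus control of -0.07 (95% interval -0.18 to 0.04). Ehmt1 (GLP), its partner, read 7.48, 7.23, 7.33 and 7.39 in F2 livers, 7.39, 7.24, 7.25 and 7.14 in F3 livers and 7.22, 7.43, 7.18 and 7.34 in control livers. Its F3 minus F2 was -0.11 (95% interval -0.28 to 0.06), and the groups overlapped. Setdb1, the H3K9 methyltransferase that works with Trim28, differed from control by -0.02 in F2 and -0.01 in F3. Setd2, the H3K36 methyltransferase, differed by 0.05 in F2 and 0.04 in F3. Suv39h2, an H3K9 enzyme of heterochromatin, was not tested, with values of 3.56 to 3.79 that 61.8% of negative control probe sets matched or exceeded.

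The 8 lysine demethylases remove methyl groups from histone lysines, Kdm1a (LSD1) by a flavin-dependent reaction and the rest by JmjC domains. In F2 livers 6 were higher and 2 lower than control, and in F3 livers 4 were higher and 4 lower. An unadjusted p under 0.05 was found for 0 of the 8 in either (limma), against 0.919% of all genes in F2 and 2.93% in F3. For so short a list 0 is near those shares. Their differences lay between -0.02 (Kdm1a) and 0.07 (Kdm4c) in F2 and between -0.08 (Kdm1a) and 0.08 (Kdm4c) in F3. Kdm5b, an H3K4 demethylase, had the second widest scatter of the members, with a within-group SD of 0.261. It read 6.83, 7.13, 7.13 and 7.34 in F2 livers, 7.26, 7.21, 6.93 and 6.89 in F3 livers and 7.43, 6.71, 6.79 and 7.27 in control livers. Kdm6b, which removes H3K27 methylation and is induced in inflammation, was highest on F3 replicate 4 at 7.79 and lowest on F3 replicates 1 and 3 at 7.29.

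The 8 measured histone deacetylases split 2 higher and 6 lower in F2 and 4 each way in F3. Hdac8, a class I enzyme encoded on the X chromosome, read 6.02, 6.32, 5.99 and 6.20 in F2 livers, 6.26, 6.05, 6.13 and 5.98 in F3 livers and 6.06, 5.96, 5.90 and 6.18 in control livers. Its F2 minus control was 0.10 (95% interval -0.09 to 0.30), and 0.04 without F2 replicate 2. Hdac4, a class IIa enzyme that leaves the nucleus when phosphorylated, read 7.06, 7.13, 7.09 and 7.05 in F2 livers, 7.05, 7.09, 7.05 and 7.03 in F3 livers and 7.18, 7.02, 7.21 and 7.09 in control livers. F3 minus control was -0.07 (95% interval -0.19 to 0.05), with control replicate 2 at 7.02 below every F3 array. Hdac3, the NCoR-bound enzyme that represses lipid synthesis genes in liver, differed from control by -0.02 in F2 and -0.08 in F3 (SE 0.072 each). Hdac2, a partner of Hdac1 in several corepressor complexes, ran from 5.97 to 6.77 within the control group alone. The brightest Hdac1 probe set carries an identifier of chromosome 17, while RefSeq places Hdac1 on chromosome 4; a second probe set named for chromosome 4 gave -0.02 in F2 and 0.02 in F3, against -0.03 and 0.07 from the brighter one. Hdac9 was dim, with 38.7% of negative control probe sets at least as bright.

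Sirtuins couple deacetylation to NAD, and Sirt1 and Sirt6 are known regulators of liver metabolism. Sirt1 differed from control by 0.02 in F2 and 0.03 in F3 (SE 0.052 each). Sirt6 differed by -0.06 in each (SE 0.063). Both kept those signs under every alternative setting, several of which cannot change a difference, and with any 1 array left out. In neither did the unadjusted p pass 0.05 in the limma fit reported here. Sirt2, a mostly cytoplasmic sirtuin, averaged 8.74, 8.77 and 8.78 in F2, F3 and control livers.

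Acetyltransferases and arginine methyltransferases showed the same picture. Kat5 (Tip60), which acetylates H4 and H2A variants, read 6.66, 6.81, 6.72 and 6.66 in F2 livers, 6.80, 6.81, 6.78 and 6.73 in F3 livers and 6.71, 6.66, 6.79 and 6.74 in control livers. F3 minus F2 was 0.07 (95% interval -0.05 to 0.19), and the groups overlapped. Kat2b (PCAF) read 8.55, 8.03, 8.49 and 8.48 in F2 livers, 8.59, 8.45, 8.36 and 8.29 in F3 livers and 8.39, 8.61, 8.24 and 8.34 in control livers, so that F2 replicate 2 lay below all other arrays. Ep300, a coactivator acetyltransferase, averaged 8.00 in F2, 7.95 in F3 and 7.97 in control livers, and Kat2a (GCN5) averaged 6.94, 6.93 and 6.95. Prmt5, which makes symmetric dimethylarginine, differed from control by -0.04 in F2 and -0.11 in F3 (SE 0.112 each), with F3 arrays spread from 7.51 to 8.12. Its F3 difference was -0.22 without F3 replicate 4 and -0.02 without F3 replicate 2, and 0.23 in the lower array set alone. Prmt1, the main asymmetric arginine methyltransferase, differed by -0.04 and 0.03 (SE 0.069 each), and Carm1, a coactivator of the same family, by 0.00 and -0.05 (SE 0.053 each).

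**Figure D4:**
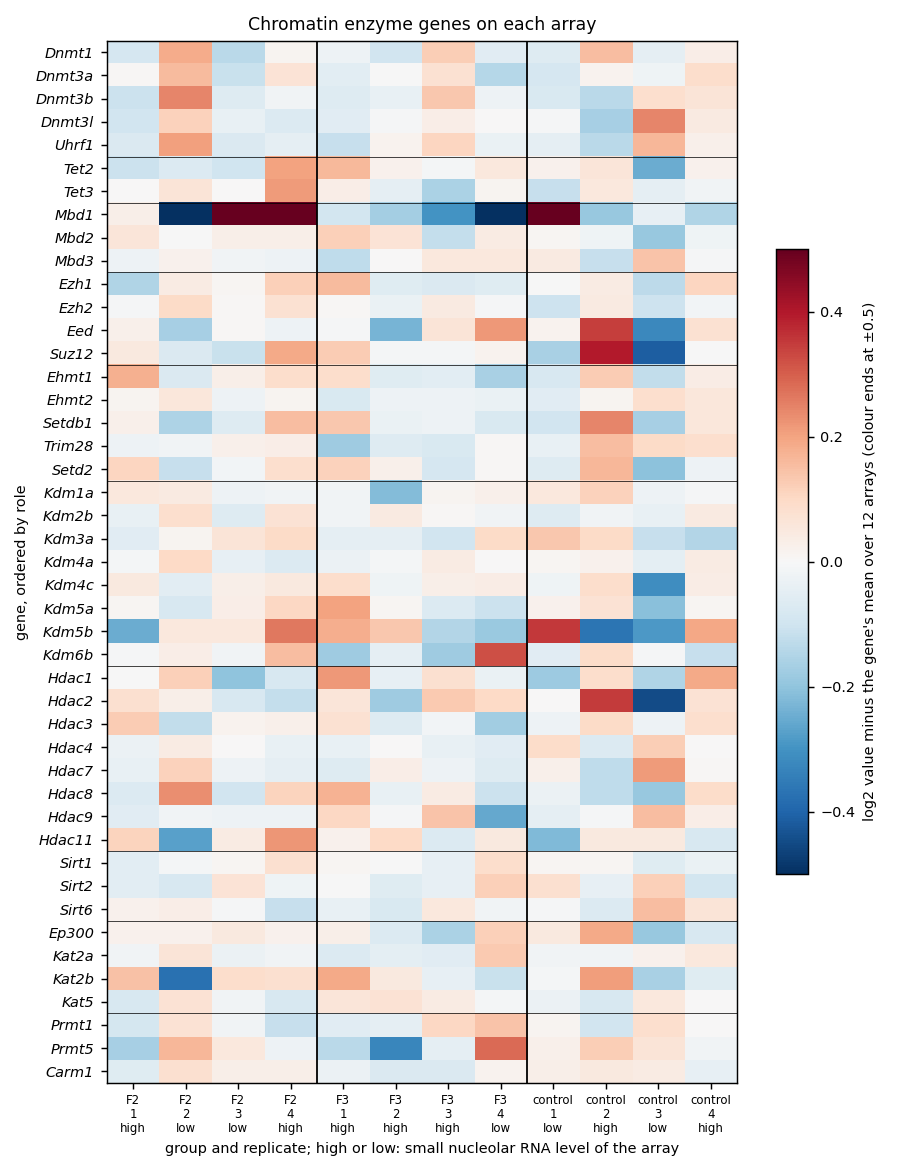
Log2 value of each tested gene (rows, by role) on each array (columns), centred on its mean across arrays, with the colour scale ending at 0.5 on either side; the words high and low give the small nucleolar RNA set of the array. Group boundaries do not coincide with colour changes, and outside Mbd1 the widest ranges are those of Suz12, Hdac2 and Eed, between control replicates 2 and 3, and of Kdm5b, between control replicates 1 and 2.

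Taken as classes, writers, erasers and readers did not separate the groups. The writers counted here include Eed and Suz12, the partners of Ezh1 and Ezh2, while Dnmt3l, Uhrf1 and Trim28 were placed with the readers and cofactors. The 18 writers had a median difference from control of -0.006 in F2 and -0.016 in F3. The 21 erasers had medians of 0.016 in F2 and -0.002 in F3, and the 6 readers and cofactors -0.016 and -0.029. The median of the centred values of the writers ranged from -0.014 to 0.058 over the F2 arrays, from -0.041 to -0.001 over the F3 arrays, and from -0.073 to 0.084 over the control arrays. For erasers the ranges were -0.009 to 0.052, -0.022 to 0.022 and -0.043 to 0.052 in F2, F3 and control livers. Readers and cofactors spanned -0.027 to 0.009 in F2, -0.099 to 0.001 in F3 and -0.122 to 0.119 in control livers. The control group spanned the widest range in all 3 classes and took in the whole F3 range in each; the F2 range lay inside it for each class as well.

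Several members differed widely between single control arrays. Eed, Suz12, Setdb1, Setd2, Hdac2 and Ep300 were highest of all 12 arrays in control replicate 2 and lowest in control replicate 3. That is 6 of 45 members (13.3%), against 5.68% of all genes. Dnmt3l, Hdac4 and Hdac7 had the opposite order over the 12 arrays (6.67%, against 14.0% of all genes). These 2 control arrays belong to opposite small nucleolar RNA sets. Of the 45 members 1, Setdb1, separated the 2 sets without overlap, against 5.71% of all genes; it averaged 6.95 in the higher set and 6.76 in the lower set. In the higher set 23 of 45 members (51.1%) had the higher mean, against 40.2% of all genes, with a range over roles from 4 of 4 in Polycomb repressive complex 2 to 0 of 3 sirtuins and 0 of 3 arginine methyltransferases. The lists are small, and these counts were not tested. The part of array set in these values was not tested beyond the fits with the set as a block.

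Other chromatin genes were drawn from a list of readers, writers, erasers, complex subunits and DNA demethylation or repair genes outside the 50, of which 86 were tested. In F2 against control livers 39 were higher and 47 lower with 0 called (limma), that is 45.3% higher against 43.3% of all genes. An unadjusted p under 0.05 was found for 1 of the 86 (1.16%), near the 0.919% of all genes. That gene was Hdac10, a polyamine deacetylase, at 6.66, 6.70, 6.68 and 6.62 in F2 livers and 6.82, 6.68, 6.77 and 6.87 in control livers, a difference of -0.12 (SE 0.055, adjusted p = 0.9999 by limma). The next 3 by p were Dpy30, Zbtb33 and Cbx5. Dpy30, a subunit shared by H3K4 methyltransferase complexes, read 6.56, 6.62, 6.69 and 6.57 in F2 livers, against 6.80, 6.68, 6.77 and 6.72 in control livers (-0.13, SE 0.073). Zbtb33 (Kaiso), which binds methylated DNA, read 6.49, 6.44, 6.32 and 6.33 in F2 livers, against 6.35, 6.28, 6.25 and 6.35 in control livers (0.09, SE 0.060). Cbx5, the heterochromatin protein HP1 alpha, read 6.23, 6.10, 6.33 and 6.15 in F2 livers, against 6.18, 6.08, 6.09 and 6.12 in control livers (0.09, SE 0.064). Groups overlapped for all 4.

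In F3 against control livers 34 of the 86 were higher and 52 lower, with 0 called (limma), that is 39.5% higher against 45.3% of all genes. An unadjusted p under 0.05 was found for 5 (5.81%), against 2.93% of all genes, and 4 (4.65%) separated the groups without overlap, against 1.63%; whether the list differs from all genes was not tested. Jmjd6, a JmjC-domain lysyl hydroxylase, read 6.11, 6.09, 6.21 and 6.26 in F3 livers, against 6.30, 6.30, 6.42 and 6.35 in control livers. Every F3 array lay below every control array, with a difference of -0.18 (SE 0.059, adjusted p = 0.9998 by limma). Kmt2b, an H3K4 methyltransferase, read 6.70, 6.63, 6.72 and 6.82 in F3 livers, against 6.84, 6.89, 6.90 and 6.85 in control livers (a difference of -0.15, SE 0.056), again without overlap. Jmjd1c, a JmjC protein related to the H3K9 demethylase Kdm3a, was higher in F3 at 7.60, 7.50, 7.58 and 7.53, against 7.46, 7.36, 7.31 and 7.42 in control livers (a difference of 0.17, SE 0.064), also without overlap. The bromodomain reader Brd2 read 7.32, 7.38, 7.48 and 7.72 in F3 livers, against 7.65, 7.80, 7.71 and 7.62 in control livers, a difference of -0.22 (SE 0.084) with overlap. The other gene without overlap was Kat6b, a histone acetyltransferase, at 0.08 (SE 0.052), whose unadjusted p was above 0.05. None of these genes, nor Gadd45a, which also had an unadjusted p under 0.05, passed adjustment over all genes, where the smallest adjusted p of the list was 0.9998. In F2 minus control the values were 0.00 (Jmjd6), -0.02 (Kmt2b), 0.01 (Jmjd1c) and -0.08 (Brd2).

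The promoters of the members were mostly rich in CpG. RefSeq promoter windows matched 43 of the 50 members. The median ratio of observed to expected CpG was 0.78 over members and 0.70 over 10951 tested protein-coding genes, and 81.4% of members were above 0.6, against 61.9%. Median GC content was 61.3% and 60.0%. CCAAT was present in 53.5% of members and 41.7% of tested protein-coding genes, TATAAA in 6.98% and 9.99%, and CCGGAAG, the core of an ETS site, in 9.30% and 17.0%, each on either strand. Tet2 had the highest ratio of the members at 1.17 and Hdac9, averaged over 2 starts, the lowest at 0.10. The 250 bases before each start are printed to show the 2 ends of this range, with CpG in capitals (GRCm38.p6, RefSeq, minus strand). Tet2 is at chr3:133544391-133544640, with 51 CpG, and the 2 Hdac9 starts are at chr12:34917096-34917345, with 0, and chr12:34528890-34529139, with 2.
Tet2: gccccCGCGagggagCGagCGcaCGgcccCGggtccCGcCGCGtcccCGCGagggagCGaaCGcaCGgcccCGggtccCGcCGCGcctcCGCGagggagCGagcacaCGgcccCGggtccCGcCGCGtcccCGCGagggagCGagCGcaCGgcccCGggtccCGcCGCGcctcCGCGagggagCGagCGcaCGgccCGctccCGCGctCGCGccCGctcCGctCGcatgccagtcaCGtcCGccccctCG
Hdac9, start 1: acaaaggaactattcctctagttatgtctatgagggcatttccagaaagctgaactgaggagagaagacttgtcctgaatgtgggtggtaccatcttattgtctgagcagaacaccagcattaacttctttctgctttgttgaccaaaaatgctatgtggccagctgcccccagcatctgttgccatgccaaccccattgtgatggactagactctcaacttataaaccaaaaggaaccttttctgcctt
Hdac9, start 2: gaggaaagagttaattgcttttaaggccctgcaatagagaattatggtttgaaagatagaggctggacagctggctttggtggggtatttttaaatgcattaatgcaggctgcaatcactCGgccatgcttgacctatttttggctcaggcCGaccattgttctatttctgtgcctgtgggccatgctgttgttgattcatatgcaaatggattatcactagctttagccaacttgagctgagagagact
Hdac9 was also among the dimmest tested members, and Tet2 read between 5.89 and 6.34.

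**Figure D5:**
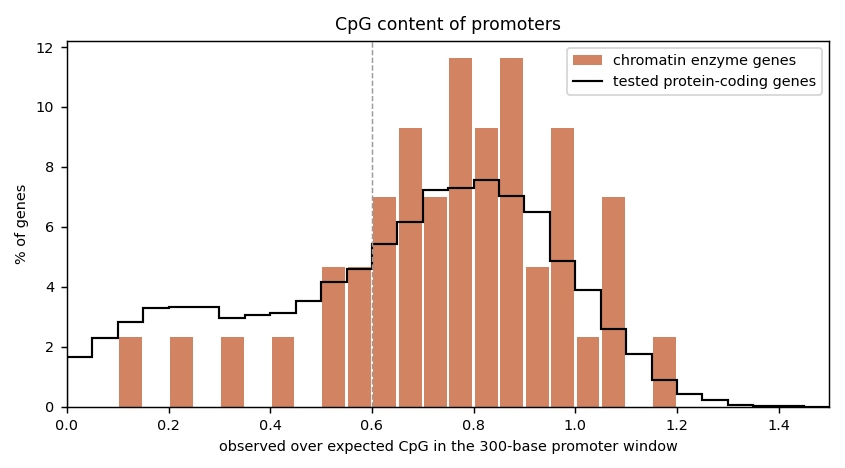
Share of genes, in percent, by observed over expected CpG of the 300-base RefSeq promoter window, for members (bars, 43 genes) and tested protein-coding genes (line, 10951 genes); the dashed line marks 0.6. Of the members 81.4% lie to its right, against 61.9% of tested protein-coding genes.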

How the data were processed

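The deposited log2 values per probe set came from the authors' run of Affymetrix Expression Console, as the submitters' processing notes name it; the sources used here do not give its version, background correction or normalization. The scale was read from the values (0.73 to 13.64). Of 72688 probe sets, the platform annotation gave 30604 with 1 gene symbol and 2146 with several, which were not used. Each gene took its probe set with the highest mean. Genes with a mean above 4.55, the median of all probe sets, were tested; 57.0% of negative controls lay under it. All 12 arrays, grouped by their labels, were fitted without covariates by lmFit and eBayes of limma 3.58.1 (R 4.3.3), which left 9 residual degrees of freedom. P-values were adjusted by Benjamini-Hochberg over 18725 genes with a threshold of 0.05, and intervals are 95% confidence intervals. The fit was tested on simulated data with independent noise and added changes larger than any member difference. That test does not bear on the detection of differences as small as those of the members. The number of arrays limits the precision.

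Values per array are given for the DNA methylation genes, for the 5 members with the lowest p in F2, F3 and F3 minus F2, and for 4 genes of the other chromatin list by lowest p in F2 and in F3. Kdm5b, Kat2b, Kat6b, Gadd45a and the genes named for single arrays were chosen after their values were seen. The members and lists were chosen with earlier results of these data known. Replicate numbers did not pair the samples: 3 of 12 same-number correlations exceeded 0.1 (-0.506 to 0.322). No pair of arrays held identical values. The alternatives were other normalizations, filters, probe set rules and variance models, the arrays compared alone, the replicate number or the array set as a block, each array set alone, each array left out, an adjusted p under 0.10 and, chosen after seeing the data, Hdac1 from its chromosome 4 probe set. Promoter sequences are from RefSeq (GRCm38.p6), and motifs were searched on both strands with overlaps allowed. A motif counted for a gene where any of its windows held it, and members had more windows per gene than all tested protein-coding genes. CpG ratios and GC content were averaged over the windows of a gene.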

Additional observations from a re-analysis of the deposited data

Results flagged for a closer look

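In 10 of 144 groups of 4 arrays (48 genes, 3 groups) the highest or lowest array stood far from the other 3; chance gives about 1 in 20 such groups. F2 replicate 2 accounted for 5 of them. On that array Uhrf1 read 5.91 against 5.63 to 5.66 on the other F2 arrays, Mbd3 7.37 against 7.32 to 7.33, Hdac7 6.38 against 6.22 to 6.24 and Kat2a 7.00 against 6.91 to 6.92, while Kat2b read 8.03 against 8.48 to 8.55. Tet2 read 6.34 on F2 replicate 4, against 6.03 to 6.07 on the other F2 arrays. Ezh1 read 7.69 on F3 replicate 1, against 7.46 to 7.47. Kat2a read 7.07 on F3 replicate 4, against 6.87 to 6.89. Control replicate 3 gave the lowest control value of Tet2, 5.89 against 6.16 to 6.20, and of Mbd2, 6.99 against 7.16 to 7.19.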

How the results depend on the processing

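No member passed an adjusted p under 0.05 in any comparison under any setting tried; the smallest adjusted p of a member over all settings was 0.9325 for F2 minus control, 0.6667 for F3 minus control, 0.662 for F3 minus F2 and 0.7355 for both descendant groups together minus control. Over all genes the count was 0 in each comparison and setting except in the lower array set alone (5 arrays, with F3 a single array assumed to vary like the others), where limma called 2 genes for F3 minus control, 3 for F3 minus F2, 1 for both descendant groups together minus control and 1 for any difference among the 3 groups. In that set the median difference of the members for both groups together was 0.036, against 0.002. With the replicate block, 0 genes were called in every comparison. The median of the members stayed at -0.002 for F2, -0.010 for F3 and -0.009 for F3 minus F2. These medians could not change, since each group holds each replicate number once. With each array left out in turn, 0 genes were called, and the median of the members ranged from -0.014 to 0.018 for F2, -0.018 to 0.002 for F3, -0.025 to -0.003 for F3 minus F2 and -0.017 to 0.007 for both together. Leaving out 1 array turned the sign of the difference for 30 of 45 members in F2 and 26 in F3. In each, 10 members kept their sign under all settings, among them Trim28, Mbd2, Sirt1 and Sirt6 in both. Several settings, such as the filters, the arrays compared alone and the replicate block, cannot change a difference. Keeping the sign under those is no check. Both descendant groups together against control gave 0 of 45 members called (0% of all genes) and 1, Trim28, at an unadjusted p under 0.05 (a difference of -0.11; 1.49% of all genes), which was not under 0.05 with quantile normalization, median centring, the replicate block, the array set as a block or the lower set alone, nor without any single array except F3 replicate 4 or control replicate 1. Signal limits the dim members: 26 of 45 lay below the 95th percentile of negative controls, and the causes of the settings' effects were not tested.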

Other observations

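Hdac4 had a second probe set, and the 2 disagreed in sign in F2: the second gave 0.08 in F2 and -0.15 in F3, against -0.04 and -0.07 from the brighter one. Outside the 50 members, Gadd45a, a stress-induced gene tied to DNA demethylation, was noticed after its values were seen. Gadd45a differed by -0.07 in F2 and 0.22 in F3 (SE 0.098 each), and did not pass adjustment over all genes.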
